A study of Homo sapiens with 8 samples.

Results

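Tumour cells hold off T cells, natural killer cells and macrophages through ligands on their surface and through enzymes that use up tryptophan, and 9 human genes of this kind were examined here at their promoters. They were CD274 (PD-L1) and PDCD1LG2 (PD-L2), IDO1 and IDO2, LGALS9 (galectin-9), CD276 (B7-H3), CD47, PVR (CD155) and NECTIN2 (CD112), a fixed list of 9 among 20033 protein-coding genes. The mark was H3K4me3, trimethylation of histone H3 at lysine 4, which sits over the first nucleosomes of active or poised promoters. The cells were U2OS, a human osteosarcoma line that keeps its telomeres without telomerase. Before the ChIP, all 6 clones received interferon gamma (IFNγ) at 250 U/ml over 24 h, 3 of them wild type (WT) and 3 with ZBTB48 Knockout (KO), each library coming from its own clone, so that the spread within a genotype is the spread between clones. ZBTB48 is a zinc finger protein that binds telomeric DNA and some gene promoters. Every value below describes cells under IFNγ, and with no untreated sample the effect of IFNγ itself was not measured here.

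PD-L1 and PD-L2 are ligands of PD-1, an inhibitory receptor of T cells, and both genes are known targets of IFNγ, which acts through the kinases JAK1 and JAK2 and, further down, the factor IRF1. IDO1, likewise an IFNγ target, opens the tryptophan ring on the way to kynurenine, and IDO2 is its neighbouring paralog. CD47 binds SIRPα on macrophages, PVR and NECTIN2 bind TIGIT and CD226 on T and natural killer cells, and galectin-9 binds TIM-3. B7-H3 is a relative of PD-L1 that is common on solid tumours.

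Broad peaks were listed separately for each library, and the lists held 21712 to 26370 peaks. They carried no read counts, and the depth behind a value is therefore unknown here. The lists were of 2 kinds, and this split followed genotype only in part. The median peak of WT replicates 1 and 2 had a fold enrichment over local background of 13.4 and 14 and a width of 2297 and 2353 bp, whereas in WT replicate 3 and the 3 KO lists the medians were 4.19 to 4.65 and 1275 to 1487 bp. Per the labels, the 2 WT inputs carried the clone numbers 3 and 4, the numbers of the WT clones of replicates 1 and 2. Which list had an input as its background is not given in the sources used here, and its part in the values below was not tested. Where it differs from the comparison of means, the position of WT replicate 3 relative to the KO lists, which are of its own kind, is stated as well. Of the markers of the line, RUNX2, COL1A1, SPARC and VIM had a peak within 1 kb of their 5′ end in all 6 lists and COL1A2 and ALPL in none, and of the leukocyte markers PTPRC, CD3E, MS4A1, SPI1 and CD14 none had one in any list.

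To ask which of these genes carried the mark, peaks were sought around the 5′ end of each gene's MANE Select transcript. A promoter was called where a peak lay within 1 kb of the 5′ end. CD274, PDCD1LG2, IDO1, CD276, CD47, PVR and NECTIN2 were called in all 6 libraries, and the peak ran over the 5′ end itself in each of them. IDO2 and LGALS9 were called in none. Thus 7 of 9 genes were called in every library, where 65.1% of all promoters were, and 2 of 9 in no library, where 30.3% of all promoters were. No gene of the list was called in one genotype and missing from the other. By contrast CIITA, the class II transactivator and the study's reference target of ZBTB48, was called in 3 of 3 WT and 0 of 3 KO libraries, as were 21 promoters in all. Within 3 kb of its 5′ end, however, CIITA had 1275 bp under peaks in KO replicate 2 and 0 bp in KO replicates 1 and 3. ZBTB48 itself was called in all 6 libraries, and a peak at its promoter does not check its knockout.

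**Figure D1:**
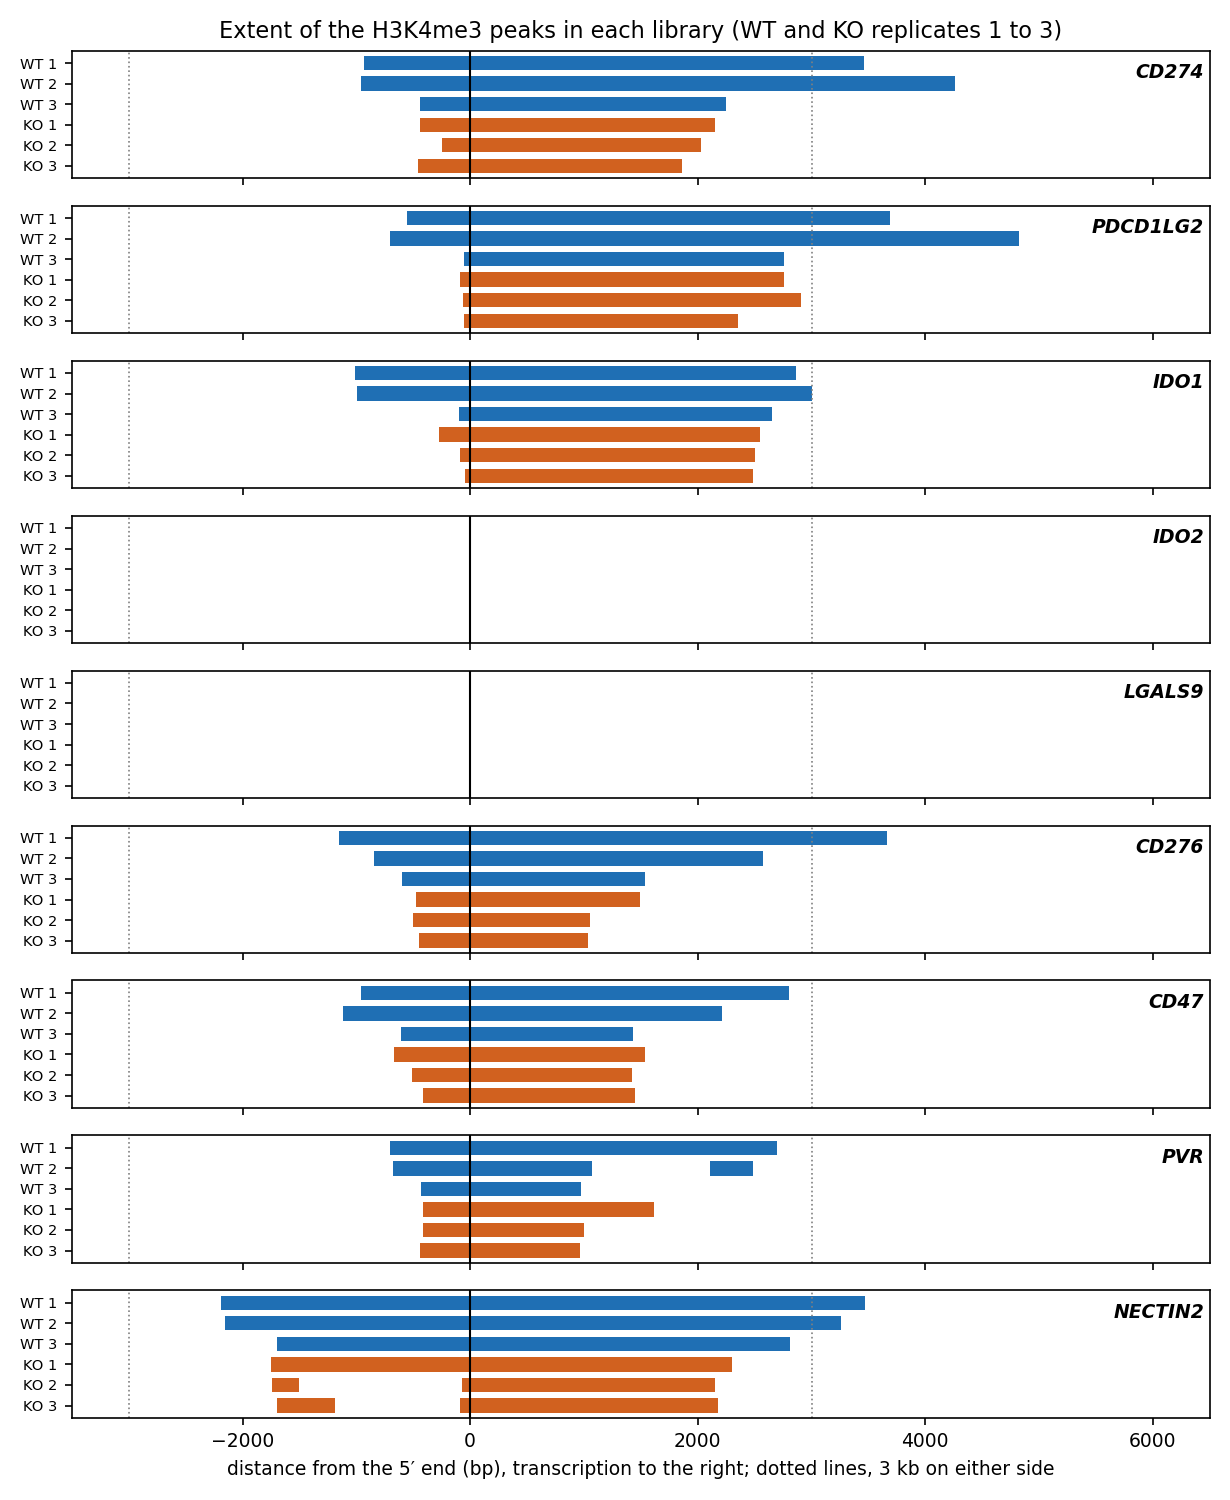
Extent of each peak that touches the 3 kb on either side of the 5′ end of the 9 genes, 1 row per library, WT in blue and KO in orange, as distance from the 5′ end in bp with transcription to the right. Peaks at CD274, PDCD1LG2 and IDO1 lie mostly to the right of the 5′ end, the NECTIN2 peak is broken in KO replicates 2 and 3, and the rows of IDO2 and LGALS9 are empty.

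For comparison between libraries the covered length was used, which counts the bp under peaks in the 6001 bp window centred on the 5′ end, 3 kb to each side. A covered length says how far the mark was called and not how high it stood. The test was a two-sided exact permutation of the 6 libraries, which cannot go below p = 0.1 with 3 against 3. Adjusted over the 14422 promoters with any coverage by the Benjamini-Hochberg method, the lowest p found was 0.196. As adjustment cannot lower a p, no gene could pass a threshold of 0.05. Differences are therefore described by their size and by whether the groups overlap.

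CD274 (ENSG00000120217, chromosome 9, 5450503 to 5470566, plus strand, GRCh38) encodes PD-L1, and its MANE Select 5′ end is at 5450542. In WT replicates 1, 2 and 3 the covered length was 3932, 3960 and 2687 bp, and in KO replicates 1, 2 and 3 it was 2595, 2284 and 2319 bp. WT replicates 1 and 2 stood far above the rest, while WT replicate 3 was only 92 bp above the highest KO library, and the groups did not overlap. The WT mean of 3526 ± 727 and the KO mean of 2399 ± 170 bp (SD, n = 3 each) were 1127 bp apart (exact permutation p = 0.1, adjusted p = 0.196). Over all promoters with any coverage the median difference in the same direction was 965 bp, and after the scaling described further on, by the median of each library, the CD274 mean was higher in KO and the groups overlapped. WT replicate 3 alone was 288 bp above the KO mean, against a median of 166 bp over promoters called in all 6 libraries. The peak began 252 to 959 bp upstream and ended 1859 to 4258 bp downstream of the 5′ end, inside intron 1 in every library, since exon 2 starts 5558 bp downstream. The mark therefore lay over the promoter, the short first exon and the first stretch of the first intron.

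The CD274 promoter is shown because, of the genes read here, it alone held letters that factors of the IFNγ pathway recognise beneath a peak. Motifs were searched on both strands of 300 bases per promoter, from 250 before the 5′ end on, in the RefSeq promoter table (GRCh38.p14), which holds 6 of the 9 genes at their MANE Select 5′ end. They were GAAANNGAA, a core that interferon regulatory factors recognise, and TTAGGG, the telomeric repeat unit. Of 35116 promoters in the table, 8.11% held the first and 9.05% the second. PDCD1LG2, IDO1 and IDO2 are not in the table. Below are the 250 bases before the CD274 5′ end and the first transcribed base, chr9:5450292-5450542 on the plus strand, with motif matches in capitals.
CD274: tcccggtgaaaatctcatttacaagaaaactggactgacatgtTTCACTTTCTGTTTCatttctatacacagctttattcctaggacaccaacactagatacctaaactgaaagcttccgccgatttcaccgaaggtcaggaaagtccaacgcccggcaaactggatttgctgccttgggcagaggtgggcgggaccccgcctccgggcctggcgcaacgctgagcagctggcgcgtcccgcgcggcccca
The interferon response core stands on the minus strand, with overlapping matches that start 207 and 201 bases before the 5′ end. Both matches lay under the CD274 peak in each of the 6 libraries. A match is a run of letters, and binding was not measured here.

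PDCD1LG2 (ENSG00000197646, chromosome 9, 5510531 to 5571282, plus strand) encodes PD-L2, and its 5′ end lies 60.0 kb beyond that of CD274. Its covered length was 3553, 3706 and 2811 bp in WT and 2843, 2971 and 2407 bp in KO replicates 1, 2 and 3. WT replicate 3 fell among the KO libraries, below KO replicates 1 and 2, so the groups overlapped. The means were 3357 ± 479 and 2740 ± 296 bp (SD, n = 3 each), a difference of 616 bp (exact permutation p = 0.3, adjusted p = 0.335). The peak began abruptly at the gene in WT replicate 3 and the KO libraries, 52 to 87 bp upstream of the 5′ end. In WT replicates 1 and 2 it began 552 and 705 bp upstream. It ended 2350 to 4827 bp downstream of the 5′ end, within intron 1. Between the CD274 and the PDCD1LG2 peaks no further peak was called in any library, leaving an unmarked stretch of 55.0 to 58.1 kb. The pair of PD-1 ligands was thus marked as 2 separate promoters in both genotypes.

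IDO1 (ENSG00000131203, chromosome 8, 39902275 to 39928790, plus strand) had its MANE Select 5′ end at 39913891. The covered length was 3879, 3993 and 2753 bp in WT and 2822, 2591 and 2531 bp in KO. WT replicate 3 was below KO replicate 1 and above the other KO libraries, and the groups overlapped. The means were 3542 ± 685 and 2648 ± 154 bp (SD, n = 3 each), a difference of 894 bp (exact permutation p = 0.2, adjusted p = 0.245). As at PDCD1LG2, the peak began close to the gene in WT replicate 3 and the KO libraries, 46 to 278 bp upstream, and it ended 2484 to 3002 bp downstream within intron 1. The lncRNA gene ENSG00000253838 starts 338 bp downstream on the same strand, and the peak cannot be divided between them.

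IDO2 (ENSG00000188676, chromosome 8, 39934614 to 40016392, plus strand), whose 5′ end is 20.76 kb downstream of that of IDO1, had a covered length of 0 bp in all 6 libraries. In 5 of 6 libraries the nearest peak was that of IDO1, 17.9 to 18.3 kb away. The mark at IDO1 therefore did not extend to its paralog in either genotype. Low levels of the mark below the threshold of the peak caller would not appear in such lists.

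CD276 (ENSG00000103855, chromosome 15, 73683966 to 73714514, plus strand), the gene of B7-H3, had a covered length of 4150, 3419 and 2132 bp in WT and 1967, 1552 and 1486 bp in KO replicates 1, 2 and 3. Every WT library was above every KO library, WT replicate 3 by 165 bp. The means were 3234 ± 1022 and 1668 ± 261 bp (SD, n = 3 each), a difference of 1565 bp (exact permutation p = 0.1, adjusted p = 0.196). WT replicate 3 was 464 bp above the KO mean, where the median promoter was 166 bp above. On its downstream side the peak ended 1035 to 1536 bp from the 5′ end in WT replicate 3 and the KO libraries, but 3661 and 2573 bp from it in WT replicates 1 and 2.

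CD47 (ENSG00000196776, chromosome 3, 108043091 to 108091862, minus strand), which encodes the signal that holds off phagocytosis, had a covered length of 3764, 3335 and 2039 bp in WT and 2207, 1931 and 1868 bp in KO. WT replicate 3 lay below KO replicate 1, and the groups overlapped. The means were 3046 ± 898 and 2002 ± 180 bp (SD, n = 3 each), a difference of 1044 bp (exact permutation p = 0.2, adjusted p = 0.245). Of the 7 covered genes CD47 had the median difference. Its peak spanned the 5′ end by 418 to 1121 bp upstream and 1422 to 2806 bp downstream.

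LGALS9 (ENSG00000168961, chromosome 17, 27629798 to 27649560, plus strand), whose 5′ end is at 27631188, had 0 bp under peaks in every library, and the nearest peak lay 161.6 to 162.2 kb away in all 6. Its promoter differed in CpG content from those of the 5 marked genes that the RefSeq promoter table holds. PDCD1LG2 and IDO1, also marked, are not in it. It held 2 CpG in 300 bases, fewer than the 14 of the median RefSeq promoter, with 0.10 of the number expected from its C and G content, while CD47 held 45, CD276 37, PVR 27, NECTIN2 26 and CD274 22. The observed over expected ratio was 0.76 to 1.01 in these 5 genes against a median of 0.58 over the table. The 100 bases just before the 5′ ends of LGALS9 (chr17:27631088-27631187) and CD47 (chr3:108091032-108091131, minus strand) are set side by side to show the contrast, with each CpG in capitals.
LGALS9: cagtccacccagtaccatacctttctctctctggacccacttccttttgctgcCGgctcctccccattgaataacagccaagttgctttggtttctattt
CD47: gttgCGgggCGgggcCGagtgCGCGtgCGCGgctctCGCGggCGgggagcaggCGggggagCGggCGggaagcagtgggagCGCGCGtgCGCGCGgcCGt
These stretches held 1 CpG at LGALS9 and 20 at CD47. In its 300 bases LGALS9 also held 1 interferon response core on the minus strand, starting 8 bases before the 5′ end, without a peak over it in any library. With 6 genes this is a description of these promoters and not a test.

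PVR (ENSG00000073008, chromosome 19, 44643798 to 44666162, plus strand) encodes the main ligand of TIGIT. Its covered length was 3398, 2132 and 1406 bp in WT and 2036, 1412 and 1408 bp in KO. WT replicate 3 was the shortest of the 6 libraries, and the groups overlapped. The means were 2312 ± 1008 and 1619 ± 361 bp (SD, n = 3 each), a difference of 693 bp (exact permutation p = 0.4, adjusted p = 0.431). In WT replicate 1 a single peak ran to 2693 bp downstream, whereas WT replicate 2 had a peak that ended at 1074 bp and a separate weak one from 2112 to 2488 bp, with a fold enrichment of 2.54. Whether the downstream shoulder of PVR was called or not thus varied among WT clones, and in KO replicate 1 the peak reached 1619 bp downstream against 998 and 968 bp in the other KO libraries.

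NECTIN2 (ENSG00000130202, chromosome 19, 44846175 to 44889223, plus strand), a relative of PVR on the same chromosome, had the longest coverage of the list. It was 5191, 5153 and 4511 bp in WT and 4051, 2462 and 2784 bp in KO replicates 1, 2 and 3. Each WT library was above each KO library, WT replicate 3 by 460 bp. The means were 4952 ± 382 and 3099 ± 840 bp (SD, n = 3 each), a difference of 1853 bp (exact permutation p = 0.1, adjusted p = 0.196). This was the largest difference among the 9 genes, and it was also the largest within lists of the same kind, where WT replicate 3 was 1412 bp above the KO mean.

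The shape of the called NECTIN2 peak differed among the KO clones. In the 3 WT libraries and KO replicate 1 a single unbroken peak ran from 1698 to 2190 bp upstream to 2299 to 3473 bp downstream of the 5′ end. In KO replicates 2 and 3 it was broken in 2, a small peak far upstream and a main peak that began only 72 and 86 bp before the 5′ end, with 1435 and 1098 bp of uncovered sequence between them. The uncovered stretch is the immediate upstream side of the promoter, and in KO replicate 1 it lay under the peak. KO replicates 2 and 3 also had the fewest peaks of the 6 lists, 21712 and 21963. WT replicate 3 and KO replicate 1 had 24474 and 26370. The median covered length was also lowest in KO replicates 2 and 3, at 1785 and 1685 bp. A link between this and the break was not tested. The 250 bases before the 5′ end and the first transcribed base, chr19:44846047-44846297 on the plus strand, are shown with the telomeric repeat unit in capitals.
NECTIN2: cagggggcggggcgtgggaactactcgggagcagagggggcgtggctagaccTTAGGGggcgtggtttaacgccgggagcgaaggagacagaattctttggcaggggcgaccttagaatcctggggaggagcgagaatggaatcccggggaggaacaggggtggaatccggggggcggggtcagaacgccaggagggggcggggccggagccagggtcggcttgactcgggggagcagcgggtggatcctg
This unit starts 198 bases before the 5′ end. It lay under the peak in the WT libraries and KO replicate 1 and in the uncovered stretch in KO replicates 2 and 3. The table's promoters hold this unit at a share of 9.05%, and whether ZBTB48 bound here was not measured in these libraries. CD276, CD47 and PVR held neither motif.

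**Figure D2:**
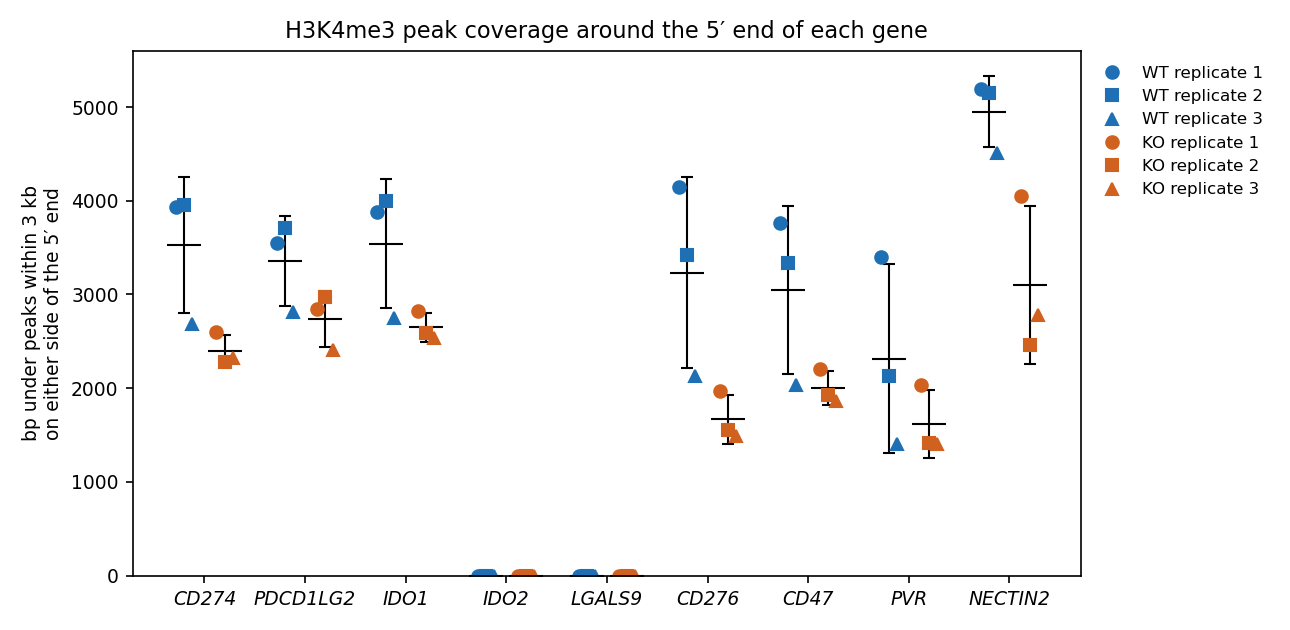
Covered length, the bp under peaks up to 3 kb from the 5′ end, of each gene in each library, WT in blue and KO in orange, with marker shape for the replicate and black bars for the mean ± SD of 3 libraries. WT replicate 3 (blue triangle) lies close to the KO libraries at CD274, PDCD1LG2, IDO1, CD276, CD47 and PVR, and 460 bp above the highest of them at NECTIN2.

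Over the list, each WT library exceeded each KO library in covered length at CD274, CD276 and NECTIN2, which is 3 of 7 covered genes, and the groups overlapped at the other 4. The reverse was seen at 0 of 7. Of all covered promoters 50.8% had every WT library above every KO library and 0.111% the reverse, so the share in the list was near the background. WT replicate 3 alone exceeded each KO library at the same 3 genes, where 54.4% of the promoters covered in these 4 libraries did so. Without WT replicate 3, when only the pair of wide WT lists faced the KO lists, the groups were apart at 7 of 7 genes and at 90.9% of all promoters covered in the other 5 libraries. Without KO replicate 1 they were apart at 5 of 7 genes, IDO1 and CD47 being added, and at 80.2% of all promoters. The median difference was 1044 bp in the list, beside 1007 bp over promoters called in all 6 libraries. NECTIN2 was the longest of the 7 genes in every library but KO replicate 2, and PVR was the shortest in every library but KO replicate 1.

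To take out the general difference in width, covered length was divided by the median of its own library over promoters called in all 6 libraries, a median that ran from 1685 to 3363 bp. This moved the median log2 ratio of WT over KO of all these promoters by -0.66, from 0.62 to -0.04. On this scale PDCD1LG2 was 1.06, 1.13 and 1.40 in WT and 1.45, 1.66 and 1.43 in KO replicates 1, 2 and 3. Every KO library was now above every WT library, by a mean of 1.52 ± 0.13 against 1.2 ± 0.18 (SD, n = 3 each, exact permutation p = 0.1). IDO1 had the same order, with 1.15, 1.21 and 1.38 in WT and 1.44, 1.45 and 1.5 in KO (exact permutation p = 0.1). At CD276 the WT libraries remained above the KO libraries, with 1.23, 1.04 and 1.07 against 1.01, 0.87 and 0.88 (exact permutation p = 0.1). CD274, CD47, PVR and NECTIN2 overlapped between genotypes, and at the first 3 of these the KO mean was now the higher one, with WT minus KO at -0.089, -0.056 and -0.10. Over all covered promoters 5.53% had each WT library above each KO library on this scale and 12.9% the reverse. The direction of the difference in means thus turned with the scale at CD274, PDCD1LG2, IDO1, CD47 and PVR, and it kept WT above KO at CD276 and NECTIN2.

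**Figure D3:**
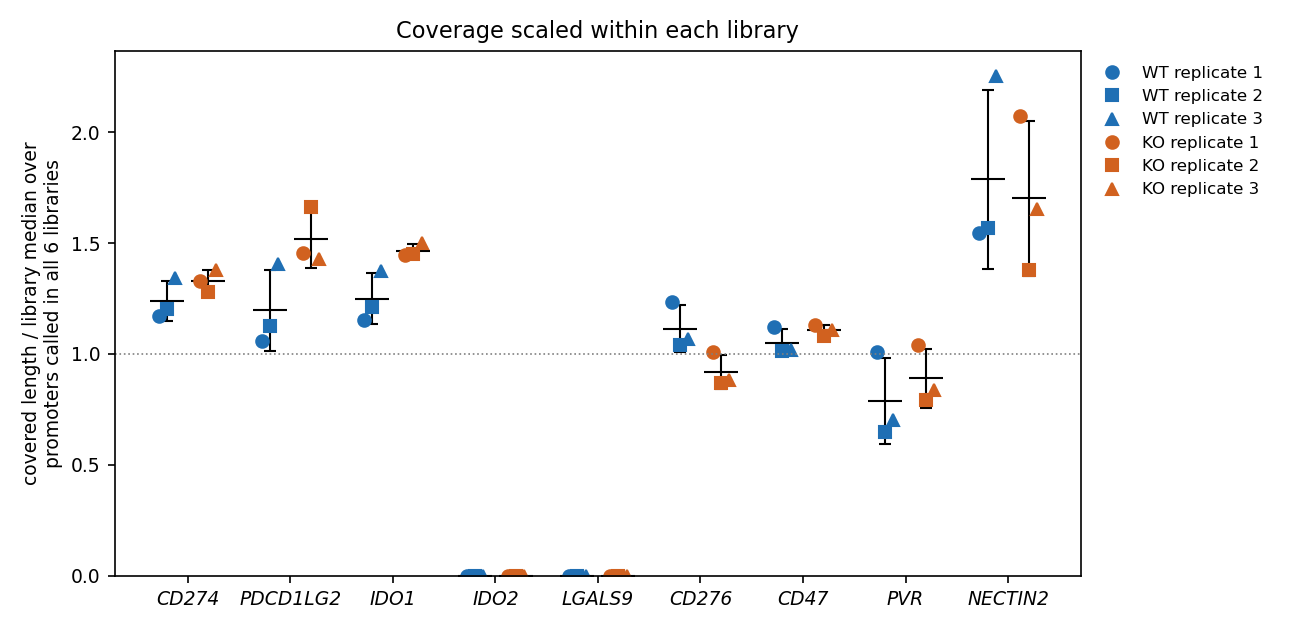
Covered length divided by the median of the same library over promoters called in all 6 libraries, with markers and bars as for the covered length in bp and a dotted line at 1, the median promoter. KO libraries lie above the WT libraries at PDCD1LG2 and IDO1 and below them at CD276.

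The 7 covered genes also differed in how the mark sat over the 5′ end. To compare lists of both kinds, each peak was ranked within its own library among the peaks over protein-coding 5′ ends, for fold enrichment, for width and for the share of the peak that lies downstream. The peaks of the IFNγ targets CD274, PDCD1LG2 and IDO1 were low, wide and shifted downstream in every library of both genotypes. Their fold enrichment stood at percentile 7.24 to 16.8 for CD274, 2.40 to 10.8 for PDCD1LG2 and 3.11 to 11.1 for IDO1. Their width stood at percentile 77.3 to 90.7, 74.7 to 94.9 and 67.3 to 91.2 in the same order. The downstream share of the peak was 78.8 to 89.0% at CD274, 87.0 to 98.1% at PDCD1LG2 and 73.9 to 98.2% at IDO1, whereas the median over all covered 5′ ends was 60.9 to 64.5% per library. In WT replicate 3 and the KO libraries the fold enrichment itself was 2.92 to 3.73 at CD274, 2.65 to 3.03 at PDCD1LG2 and 2.56 to 3.06 at IDO1, and in WT replicates 1 and 2 it was 8.92 to 12.1 over the 3 genes.

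CD276, CD47 and PVR had higher ranks of fold enrichment, at percentile 51.7 to 74.5, 34.8 to 69.6 and 43.5 to 99.5. Their widths stood at percentile 35.8 to 83.3, 55.0 to 69.8 and 6.31 to 59.7, below those of CD274, PDCD1LG2 and IDO1 in 5 of 6 libraries, while in WT replicate 1 the CD276 peak had the highest width rank of these 6 genes. The −log10 q that the peak caller gave was 66.3 to 178.6 at CD276, 68.5 to 172.6 at CD47 and 69.3 to 235.0 at PVR, against 13.01 to 37.2 at CD274, 4.05 to 40.7 at PDCD1LG2 and 5.57 to 42.6 at IDO1. The lowest of these, at PDCD1LG2 and IDO1 in KO replicate 1, stood closest to the floor of the lists, which go down to about 1 on this scale. NECTIN2 differed by kind of list. Its fold enrichment stood at percentile 85.3 and 88.2 in WT replicates 1 and 2 and at 3.85 to 9.95 in WT replicate 3 and the KO libraries. WT replicate 3 went with the KO libraries here, which are of its own kind, and both lists of the other kind were WT. The cause of this difference was not tested.

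**Figure D4:**
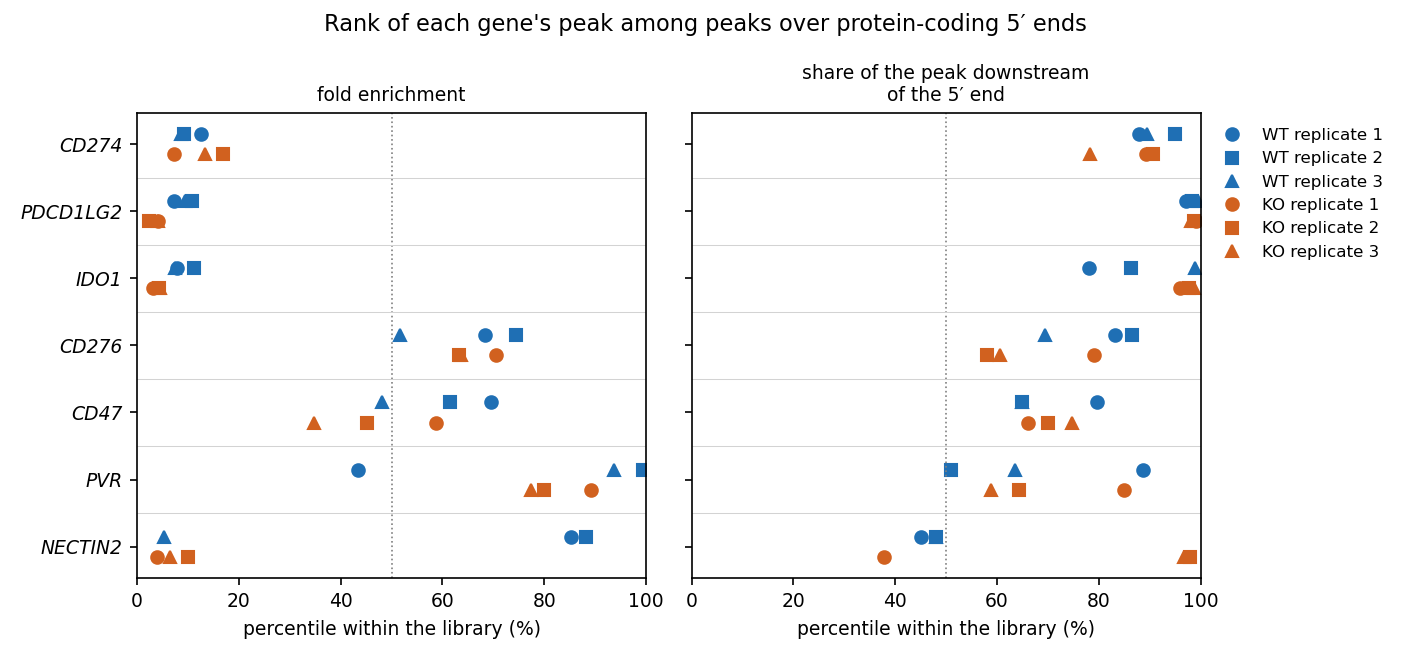
Percentile of each gene's peak among the peaks over protein-coding 5′ ends of the same library, for fold enrichment (left) and for the share of the peak downstream of the 5′ end (right), WT in blue, KO in orange, marker shape for the replicate, dotted line at the median. CD274, PDCD1LG2 and IDO1 lie below percentile 17 on the left and above percentile 78 on the right in all 6 libraries.

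A peak with fold enrichment under percentile 20, width from percentile 50 and downstream share from percentile 75 was then counted over all 5′ ends. These limits were set after the values of the 3 genes were seen, and the count is a description with no test. Such peaks made up 1.97 to 4.69% of covered 5′ ends in single libraries. Of 12288 5′ ends covered in all 6 libraries, 15 (0.122%) met the limits in every library, and CD274, PDCD1LG2 and IDO1 were 3 of them. None of the other 4 covered genes met them in all 6. The shape was not shared in full by every gene of the IFNγ pathway, though parts of it were. IRF1, whose MANE Select 5′ end was covered in 5 of 6 libraries, spanned percentile 1.25 to 81.1 of fold enrichment. Its peak was wide and shifted downstream, at percentile 97.4 to 99.7 for width and 95.2 to 99.9 for downstream share. The IFNγ target WARS1 stood at percentile 0.115 to 25.4 for fold enrichment, 89.8 to 99.9 for width and 8.38 to 91.7 for downstream share. JAK2, which lies on the same arm as CD274 and had a percentile of 15.9 to 66.2, had a downstream share of only 51.5 to 66.4%. A wide peak of low rank was also not limited to IFNγ targets. The constitutive genes ACTB and GAPDH had widths at percentile 88.3 to 99.1 and 92.5 to 97.7. Fold enrichment of ACTB ran from percentile 8.79 to 80.2, and that of GAPDH reached both lower and higher. Their downstream share stood at percentile 38.9 to 92.5 and 40.0 to 45.5.

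In covered length over the 6 libraries, CD274 was most like IDO1 among the genes of the list, with a mean absolute difference of 149.7 bp, followed by PDCD1LG2 at 296.7 bp. PVR and NECTIN2 were the least alike pair, at 2060 bp. Among all promoters PLK3, AXIN2 and AHDC1 were nearest to CD274, with mean absolute differences of 43.2, 63.8 and 64.3 bp over 6 libraries.

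The genes around this list were read from further lists. Of 9 genes of IFNγ signalling and PD-L1 stability, 9 were called in all 6 libraries, as 65.1% of all promoters were. They include JAK2, with covered lengths of 4148, 4653 and 2327 bp in WT and 2050, 2176 and 2177 bp in KO, and CMTM6, which keeps PD-L1 at the cell surface, with 3142, 3055 and 2297 bp in WT and 1826, 1988 and 2092 bp in KO. At both genes the groups did not overlap, as at 6 of the 9, beside 50.8% of all covered promoters, while IRF1 overlapped. After scaling 0 of the 9 had WT above KO and 3 had KO above WT, beside 5.53 and 12.9% of all covered promoters.

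Of 11 further genes of tryptophan metabolism, 6 were called in all 6 libraries and 5 in none, against 65.1 and 30.3% of all promoters. WARS1, the tryptophan tRNA ligase and a known IFNγ target, was among the longest, with 5833, 5799 and 5393 bp in WT and 3590, 4713 and 4445 bp in KO and no overlap (exact permutation p = 0.1). TDO2, the liver enzyme that carries out the same step as IDO1, and KYNU, which cleaves kynurenine, had 0 bp in every library. IDO1 was thus the only one of the 3 tryptophan dioxygenase genes with a called promoter in these lists.

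Of 25 other checkpoint and costimulatory ligands, 13 were called in all 6 libraries and 12 in none, and the groups did not overlap at 5 of the 13. No ligand of this list or of the 9 genes was called in a part of the libraries only, and 95.4% of all promoters were likewise called in all 6 or in none. These counts stand beside 65.1% of all promoters called in all 6, 30.3% in none and 50.8% of covered promoters with WT above KO without overlap, and they say nothing particular about ligands. Of 12 receptors, which lymphocytes and myeloid cells carry, SIRPA was the only one called in all 6, with 6001, 4989 and 3108 bp in WT and 2727, 2653 and 2473 bp in KO (exact permutation p = 0.1). TIGIT was among the 8 called in none. PDCD1, the gene of PD-1, had 536 bp in WT replicate 3 and 1328 bp in KO replicate 1 and 0 bp in the other 4 libraries. In all, 3 of the 12 receptor promoters were called in some libraries only, in each case of both genotypes. Beside these receptor counts, 65.1% of all promoters were called in all 6 libraries and 30.3% in none, together 95.4%. Both constitutive genes, ACTB and GAPDH, carried a peak in every library, with overlapping groups.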

How the data were processed

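H3K4me3 ChIP-seq peak lists of 3 WT and 3 ZBTB48 KO U2OS clones were used, grouped by the genotype and replicate in their labels. The 2 inputs were not used here. Per the study's methods and the submitters' processing notes, the authors used Trimmomatic for adapters and Bowtie2 2.3.5.1 for alignment to GRCh38, kept uniquely mapped reads free of duplicates, and ran MACS2 2.1.1.2 in its broad mode on each library. The deposited lists give for each peak a fold enrichment ratio over local background and −log10 values of p and q, averaged over the peak by the authors' caller, and a display score, which was not used. The deposited ratio and −log10 q were read only within a list or side by side, never tested between lists. Without counts, the authors' differential test on reads could not be repeated, and no counting interval was possible.

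Only peaks of the assembled autosomes and sex chromosomes entered, with 1-based positions. 5′ ends of MANE Select or canonical transcripts came from GENCODE release 44. Covered length used 3 kb on either side and a call 1 kb. The test of genotype was an exact two-sided permutation over 20 assignments, adjusted by Benjamini-Hochberg over 14422 promoters. Alternatives were stricter peak limits, equal list sizes, other windows, merging, scaling, WT replicate 3 alone and leaving out each library, and the whole width of the peak over the 5′ end, added after the data were seen. Covered length, exact p and the overlap rule were tested on simulated lists. Python 3.11.15, numpy 2.4.6, scipy 1.17.1 and matplotlib 3.10.9 were used. All 9 genes, a fixed set of pathway genes and the 3 promoters nearest to CD274 were to be named. The genes, lists and tests were chosen with earlier results of these data known. Other genes named in the closing section were chosen after their values were seen. Clones of a genotype are separate, but p-values cover only the spread between these libraries, which in WT includes the difference between the 2 kinds of list. The values of 2 genes of these lists and 1 motif are not reported here singly, while counts over a list include them.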

Additional observations from a re-analysis of the deposited data

How the results depend on the processing

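The direction of the difference in covered length held in 113 of 119 values of the 7 covered genes under 17 alternatives, and 6 values had KO longer. Of these, 5 came with scaling within the library, where WT minus KO was -0.089 at CD274, -0.32 at PDCD1LG2, -0.22 at IDO1, -0.056 at CD47 and -0.10 at PVR, in units of the library median. The other was PVR with WT replicate 3 alone, at -213 bp. The count of 113 is not a measure of robustness. With the replicate block the mean difference could not change, and most settings kept the wide lists of WT replicates 1 and 2. Scaling, which takes out the general difference in width, turned the direction at 5 of the 7 genes. CD276 had WT above KO without overlap in 17 of 17 settings and CD274 and NECTIN2 in 14 of 17. The number of genes with WT above KO without overlap, 3 as reported, was 1 with scaling, 1 with a fold enrichment of at least 4 and 1 with the 1 kb and 3 kb windows exchanged. Leaving out 1 library at a time gave 3 to 7 genes, 7 without WT replicate 3 and 5 without KO replicate 1. With fold enrichments from 4 up, 3 genes were called in every library, with 2.67 more genes called per WT than per KO library. Equal numbers of peaks per list gave a difference of 0.33 genes and left 6 genes called in every library, as the PDCD1LG2 peak of KO replicate 1 dropped out. The limit on fold enrichment removed peaks unevenly, since the 2 kinds of list differ in it. In WT replicate 3 and the KO lists the median peak, at 4.19 to 4.65, was close to the limit of 4. The share of all promoters called under this limit is not given here, so these counts say nothing particular about the genes. A −log10 q of at least 3, a call of at least 500 bp, the 5′ end of any transcript, merging within 1000 bp, peaks over the 5′ end only and the whole peak width, an alternative chosen after seeing the data, left these counts as they were. The replicate numbers did not pair the libraries, as the correlations of same-numbered deviations were -0.13, -0.00 and -0.02. With the replicate number as a block 6 genes had WT longer in every pair (smallest exact p = 0.25). In this block the wide lists of WT replicates 1 and 2 each faced a KO list. The share of all promoters with WT longer in every pair is not given here, so the count says nothing particular about these genes.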

Other observations

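IDO2, which had no peak at its 5′ end, had single weak peaks within its gene body. In WT replicate 1 and the 3 KO libraries a peak of 421 to 509 bp lay 61.2 kb downstream of the 5′ end, in the intron after exon 8, with a fold enrichment of 3.19 to 3.98 and a −log10 q of 2.73 to 4.30. WT replicate 2 instead had a peak of 1638 bp at 6.30 kb downstream, in the intron after exon 1, with a fold enrichment of 3.14, and WT replicate 3 had none. These positions were noticed after the values were seen, and they did not follow genotype.

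Among the receptor genes, CTLA4 was called in WT replicate 1 (418 bp) and KO replicate 3 (468 bp), and CD96 in WT replicate 2 (376 bp), KO replicate 1 (461 bp) and KO replicate 2 (309 bp). LAG3 had 965 and 835 bp within 3 kb in WT replicates 1 and 2 and 0 bp in the other 4 libraries. These short stretches came from 1 or 2 libraries of a genotype at a time, and at LAG3 these were the 2 wide lists.

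The 15 5′ ends with a low, wide and downstream peak in all 6 libraries comprised, beside CD274, PDCD1LG2 and IDO1, the genes CBLN2, HSPB8, IL31RA, IL32, KCNN4, MMP17, PRDM1, SFMBT2, SH3RF2, SPAG4 and TLR4 and a readthrough model that overlaps TLR4. The limits that chose them were set on the values of the first 3, and no expression was measured in these files.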
